A study of Rattus norvegicus with 12 samples.

Results

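The proteasome genes of rat aortic smooth muscle cells were followed over a day with angiotensin II (Ang II), a peptide hormone that constricts vessels and raises blood pressure. Members were all genes whose symbol begins with Psma, Psmb, Psmc, Psmd, Psme or Psmg and then a digit, which gave 47 of the 14506 genes measured. The 26S proteasome is the protease that degrades proteins tagged with ubiquitin. Its 20S core is a barrel of alpha and beta rings with the catalytic sites inside, and its 19S cap has a base, whose ATPases unfold the substrate and feed it into the barrel, and a lid, which removes the ubiquitin chains. Immune cells and cells exposed to interferon can swap the catalytic beta subunits for those of the immunoproteasome, which changes the peptides made for antigen presentation. The members were sorted by role into 6 genes of the alpha ring, 7 of the constitutive beta ring, 4 of the immunoproteasome and thymoproteasome, 6 base ATPases, 3 other base subunits, 8 lid subunits, 3 chaperones of 19S assembly, 4 activators and 3 chaperones of 20S assembly. The remaining 3, Psma3l, Psmc3ip and Psme3ip1, carry a matching symbol without being named subunits. Psma3, Psma8 and Psmg3 had no probe set with a single symbol and were not analysed here.

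RNA came from vascular smooth muscle cells of the aorta of Sprague-Dawley rats, which the labels call differentiated, grown in M199 medium with 10% fetal bovine serum and then kept for 48 h without serum. Expression was read on 12 arrays of the Affymetrix Rat Gene 1.0 ST design in 4 groups of 3, namely untreated control cells and cells given 100 nM Ang II for 6 h, 12 h or 24 h. The titles and the design text give these times, whereas the treatment protocol names 1, 3 or 24 h. The labels speak of biological replicates without naming the animals or cultures they came from, and the p-values cover only the spread among these arrays, which may be technical. Untreated cells matched to each later time were not analysed here, and Ang II and time in culture cannot be told apart. All comparisons with control share the same 3 control arrays.

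Values are the deposited log2 values of 1 probe set per gene. A difference of log2 values passed when its adjusted p (limma, Benjamini-Hochberg over all 14506 genes) was below 0.05, and such genes are said to have risen or fallen. The number of arrays limits the precision, and the standard error (SE) of a member's log2 difference was 0.04 to 0.07. Levels of different genes are not compared, because probe sets differ in brightness. Arrays of 1 group correlated at 0.9975 to 0.9984 across genes, and arrays of different groups at 0.9868 to 0.9941. The interquartile range over all genes was 3.45 to 3.46 in control and 3.40 to 3.55 at 6 h. It was 3.37 to 3.53 at 12 h and 3.26 to 3.39 at 24 h. The 24 h arrays thus had the narrowest spread of values. A fit without the narrowest array of each Ang II group, added after seeing the data, called 18, 16 and 9 members at 6, 12 and 24 h. Of all 14506 genes it called 2590 higher and 2258 lower at 6 h, 1834 and 1666 at 12 h, and 2010 and 1674 at 24 h. Of 10 smooth muscle markers, 10 lay above the array median in every group, with Acta2 at a mean of 14.39 in control. In contrast, 0 of 7 endothelial markers did (mean of the list 5.93 to 6.12 on every array). Of 6 fibroblast markers 4 lay above it in every group, with Col1a1 at a mean of 13.31 in control. Of 7 leukocyte markers 1, Cd14, lay above it in control, at 6 h and at 12 h, and 0 at 24 h. The mean level of the smooth muscle markers was 12.22 to 12.24 in control and 12.63 to 12.65 at 24 h, with 4, 5 and 9 of the 10 higher at 6, 12 and 24 h and 3, 1 and 0 lower. That of 6 fibroblast markers was 9.95 to 10.01 in control, 9.54 to 9.60 at 6 h, 9.54 to 9.59 at 12 h and 9.48 to 9.52 at 24 h, with 4 of the 6 lower at each time (Pdgfra by -1.39 at 6 h), so these levels moved at the times of the proteasome changes. Among 7 leukocyte markers, whose mean stayed within 6.18 to 6.32, Cd14 averaged 8.22 in control and 7.21 at 24 h. The part of these markers in the proteasome values was not tested. In bulk RNA, fewer cells of a type and less RNA per cell cannot be told apart.

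Proteasome genes rose at 6 h and 12 h in small steps, and most of those that rose were subunits of the 19S cap. At 6 h 17 of 47 members were higher than control and 2 lower, a share of 36.2% higher against 18.6% of all genes and of 4.26% lower against 17.2%, or 19 in either direction against 35.8% of all genes. The median log2 difference was 0.09 over the members and 0.01 over all genes. At 12 h 20 members were higher and 0 lower, against 13.3% of all genes in each direction and 26.6% in either, with medians of 0.09 and 0.01. At 24 h 8 were higher and 8 lower, close to the background of 15.3% and 14.7% (30% in either direction), and the median was -0.01 beside 0.05 over all genes. Under median centring of the arrays the 24 h split was 15 higher and 4 lower, and that of all genes moved too, to 24.5% higher and 11.8% lower. Without control replicate 1 the members called numbered 13 at 12 h and 10 at 24 h. Of all genes this fit called 1536 higher and 1640 lower at 12 h, and 1719 and 1835 at 24 h. In the full fit these were 1932 and 1923 at 12 h, and 2222 and 2136 at 24 h. A change of at least 1.5-fold against control was reached by 1 gene, Psmb10 at 24 h.

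**Figure D1:**
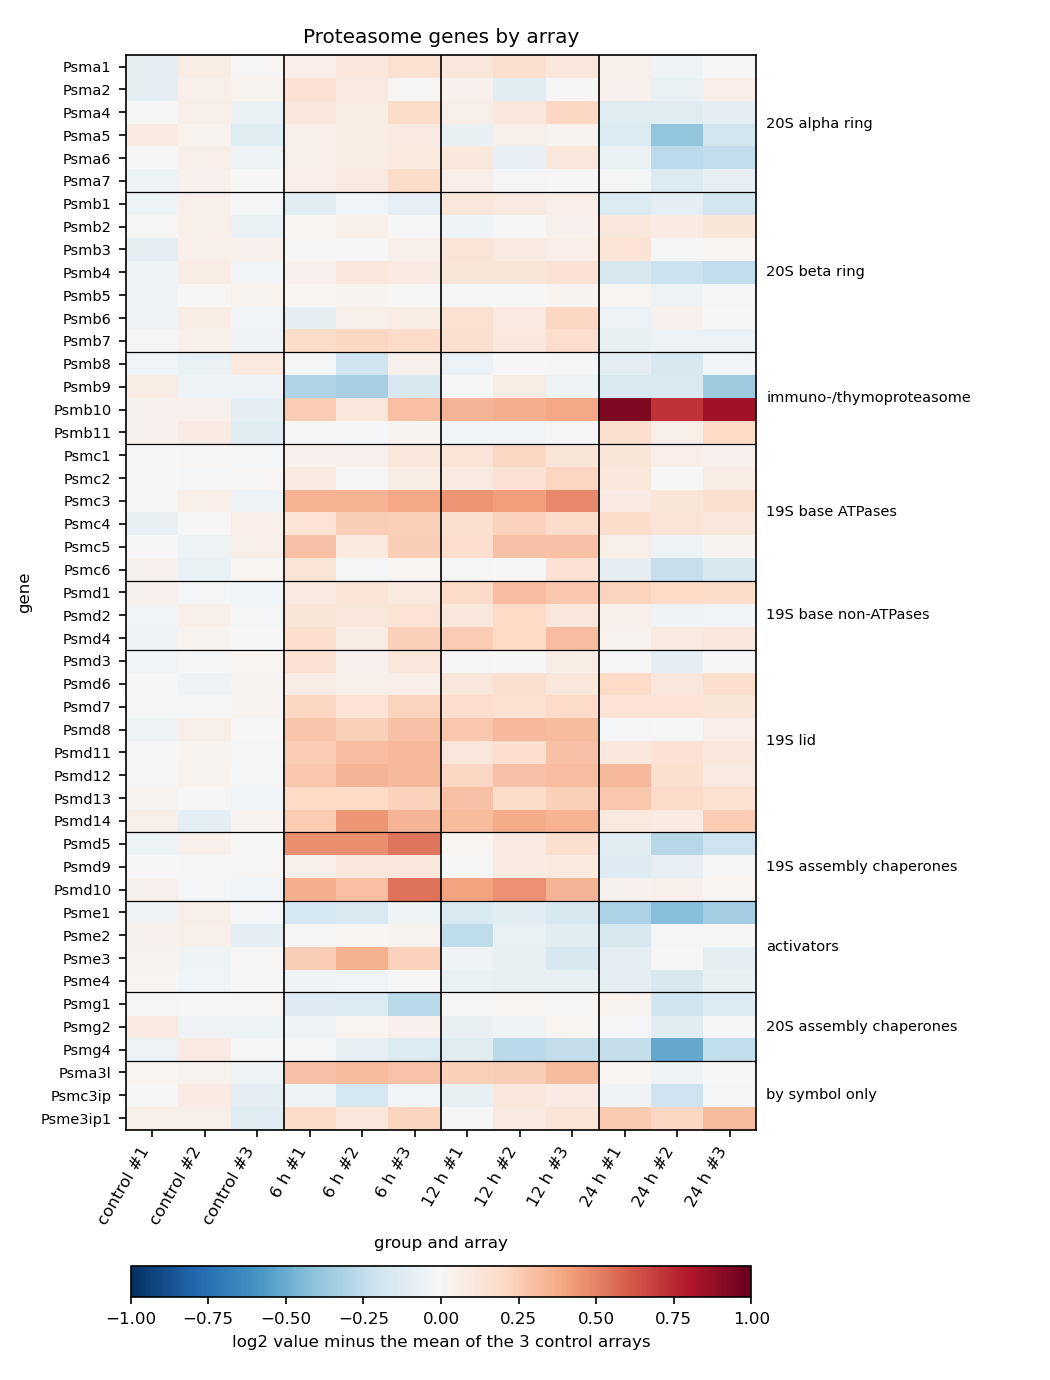
Each row is 1 proteasome gene and each column 1 array, and the colour gives the log2 value minus the mean of the 3 control arrays, with genes sorted by role. The 19S rows are red at 6 h and 12 h and paler at 24 h, and Psmb10 is the darkest row at 24 h.

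At 24 h most members lay below their level at 6 h and at 12 h. At 24 h against 12 h 2 members were higher and 18 lower, against 14% and 13.5% of all genes (27.5% in either direction), with a median of -0.12 beside 0.04 over all genes. At 24 h against 6 h 1 was higher and 21 lower, against 19.4% and 19.8% of all genes (39.2% in either direction). Median centring gave 4 higher and 15 lower for the first, against 20.4% and 11.9% of all genes, and 4 higher and 17 lower for the other, against 24.2% and 17.9%. From 6 h to 12 h 4 members rose and 2 fell, against 13.1% and 13.9% of all genes (27% in either direction), with a median of 0.00. The catalytic subunit genes Psmb5 and Psmb6 were among the members that passed against control at no time.

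**Figure D2:**
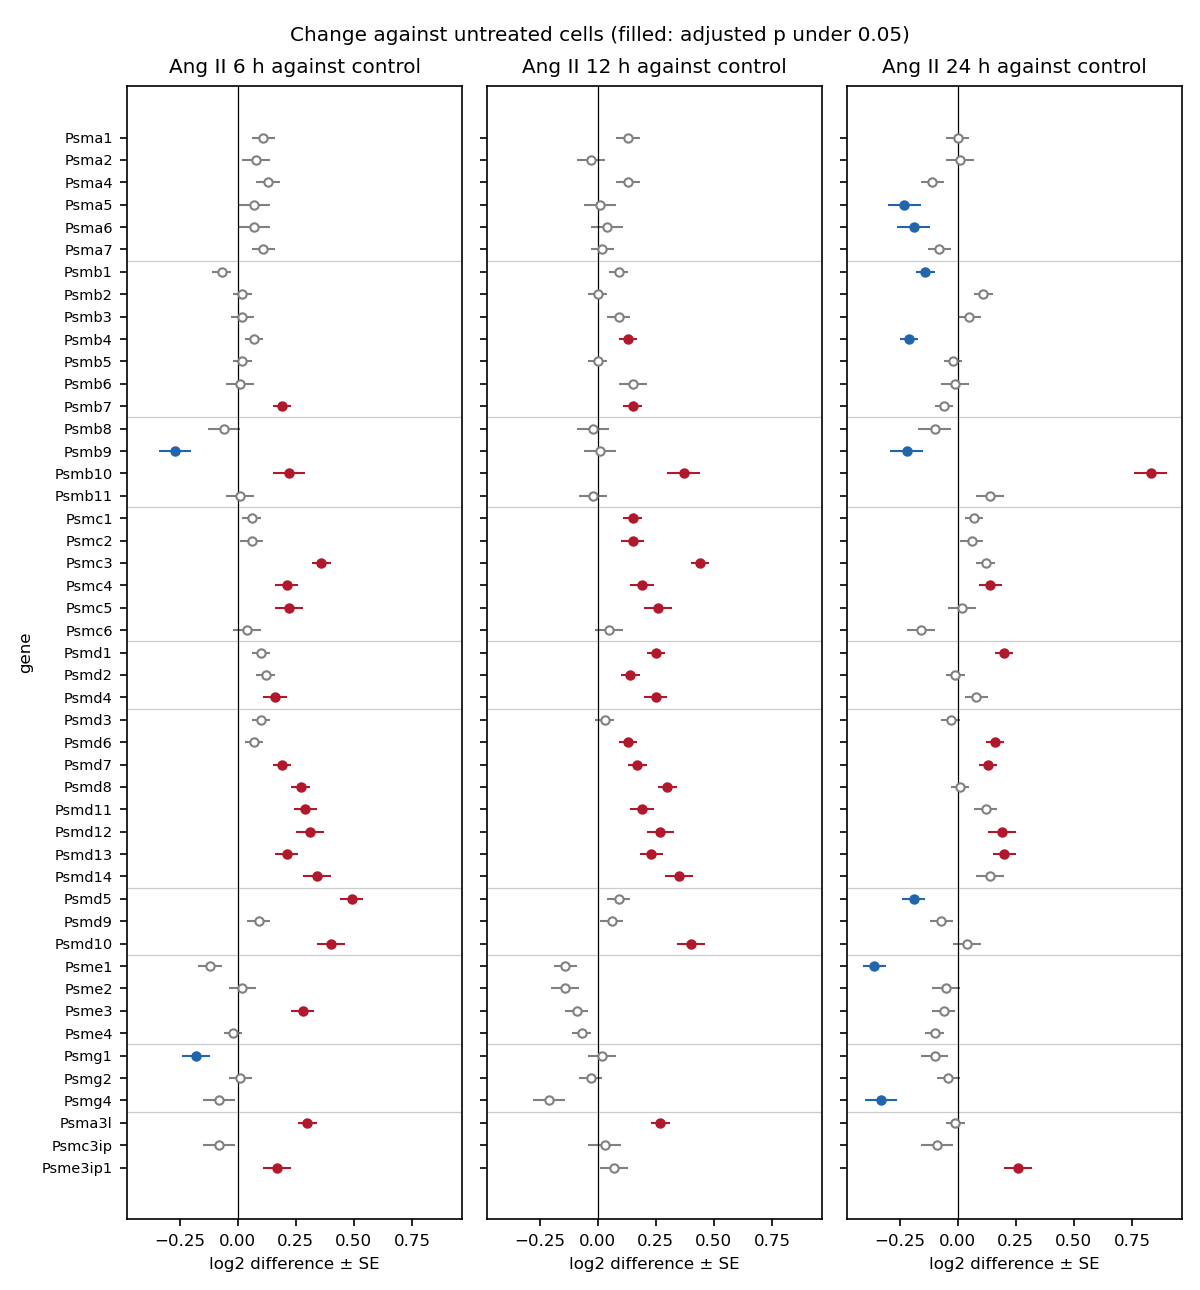
Points give the log2 difference from control of each gene at 6 h, 12 h and 24 h with its SE, sorted by role between the grey lines, with filled points for an adjusted p below 0.05 (red higher, blue lower). The 19S subunits Psmc1 to Psmd14 lie at or right of 0 at 6 h and 12 h, and Psmb10 at 24 h lies farthest right at 0.83.

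Of the 6 analysed genes of the alpha ring, which gates the entry to the barrel, 0 passed at 6 h or 12 h. Of all genes 35.8% passed at 6 h and 26.6% at 12 h in either direction, and 6 genes are few to set against these shares. Their differences there lay between -0.03 (Psma2 at 12 h) and 0.13 (Psma4 at both times and Psma1 at 12 h). Psma3 was not among them. The probe set it shares with Psma3l was higher by 0.25 at 6 h and 0.24 at 12 h (limma adjusted p = 0.00441 and 0.00799). At 24 h 2 of 6 were lower, Psma5 and Psma6, against 14.7% of all genes. Psma5 read 9.67, 9.62 and 9.46 in control, 9.64, 9.66 and 9.67 at 6 h, 9.51, 9.64 and 9.62 at 12 h, and 9.45, 9.19 and 9.40 at 24 h. All 24 h arrays were below the control arrays, the nearest by a narrow margin. Psma5 fell by 0.23 ± 0.07 at 24 h (limma adjusted p = 0.0308), and this call was lost without control replicate 1 or 2 or 24 h replicate 2, with an adjusted p of up to 0.114. Psma6 fell by 0.19 (adjusted p = 0.0481), a call lost in 10 of the 12 fits that left out 1 array, all but those without 12 h replicate 2 or 24 h replicate 1. Under median centring neither passed at 24 h. Psma1, Psma2, Psma4 and Psma7 did not pass against control at any time, but Psma4 fell by 0.24 from 12 h to 24 h (adjusted p = 0.00427).

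The constitutive beta ring includes the catalytic subunits Psmb5, Psmb6 and Psmb7, which cut after hydrophobic, acidic and basic residues respectively. Psmb7 read 11.58, 11.65 and 11.56 in control, 11.78, 11.80 and 11.79 at 6 h, 11.76, 11.70 and 11.77 at 12 h, and 11.52, 11.54 and 11.54 at 24 h. All arrays at 6 h and 12 h were above every control array, and the 24 h arrays lay just below them. Psmb7 rose by 0.19 ± 0.04 at 6 h (adjusted p = 0.00177) and by 0.15 ± 0.04 at 12 h (0.0152), and it differed by -0.06 at 24 h (0.263). The 12 h call was lost without control replicate 1 or 3 or 12 h replicate 3 (up to 0.0672). Psmb5 and Psmb6 differed from control by 0.15 or less at every time, and neither passed.

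Psmb4, a beta subunit with no catalytic site, changed direction over the day. It read 10.90, 11.02 and 10.92 in control, 10.99, 11.05 and 11.03 at 6 h, 11.07, 11.07 and 11.09 at 12 h, and 10.79, 10.73 and 10.70 at 24 h. The 12 h arrays were above and the 24 h arrays below all control arrays. Psmb4 fell by 0.21 ± 0.04 at 24 h (adjusted p = 0.00383) and by 0.34 ± 0.04 from 12 h to 24 h (0.000164). Its rise of 0.13 ± 0.04 at 12 h (0.0483) was lost in 10 of the 12 fits that left out 1 array, all but those without control replicate 2 or 24 h replicate 1. Psmb1, also without a catalytic site, fell by 0.14 at 24 h (0.0252, lost without control replicate 2 or 3 or 24 h replicate 3), while Psmb2 and Psmb3 differed from control by 0.11 or less and did not pass. Of the 13 alpha and beta genes together, 1 was higher at 6 h (7.69%, against 18.6% of all genes) and 2 at 12 h (15.4% against 13.3%). At 24 h 4 were lower (30.8%, against 14.7% of all genes). Median centring gave 1 higher and 1 lower at 24 h, namely Psmb2 and Psmb4, against 24.5% and 11.8% of all genes.

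The genes of the immunoproteasome did not move together. Psmb10 (also called MECL-1), which takes the place of Psmb7, had the largest rise of all members, whereas Psmb9 (LMP2), which takes the place of Psmb6, was lower at 6 h, and Psmb8 (LMP7), which takes the place of Psmb5, did not pass at any time. Psmb10 read 8.78, 8.78 and 8.65 in control, 8.99, 8.85 and 9.04 at 6 h, 9.08, 9.10 and 9.12 at 12 h, and 9.67, 9.46 and 9.58 at 24 h. All 24 h arrays were above all 12 h arrays, and all 12 h arrays above all 6 h arrays, with control lowest. The gene was higher by 0.22 ± 0.07 at 6 h (adjusted p = 0.0207), by 0.37 ± 0.07 at 12 h (0.00136) and by 0.83 ± 0.07 at 24 h (2.27e-06), where the fold change was 1.78. The 6 h call was lost without control replicate 3 or 6 h replicate 1 or 3 (up to 0.0907), and the others held without any 1 array, with 0.78 to 0.89 at 24 h. From 12 h to 24 h Psmb10 rose by 0.47 (0.000309), and of the 44 genes sorted by role it alone rose in that interval, while median centring added Psmb2 and Psmb11.

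Psmb9 read 8.52, 8.40 and 8.41 in control, 8.14, 8.11 and 8.28 at 6 h, 8.44, 8.52 and 8.40 at 12 h, and 8.29, 8.29 and 8.09 at 24 h. The 6 h and 24 h arrays were below all control arrays, and the 12 h arrays overlapped with them. Psmb9 fell by 0.27 ± 0.07 at 6 h (adjusted p = 0.00869), differed by 0.01 at 12 h (0.924) and fell by 0.22 ± 0.07 at 24 h (0.0314). The 24 h call was lost without control replicate 1 or 3 or 24 h replicate 3 (up to 0.116), under further quantile normalization and under median centring. Between 6 h and 12 h Psmb9 rose by 0.28 (0.00917), and between 12 h and 24 h it fell by 0.23 (0.0266). The latter call was lost without 12 h replicate 1 or 2 or 24 h replicate 3. Without the narrowest array of each Ang II group every call on Psmb9 was lost, that at 6 h included. Psmb8 read 7.48, 7.44 and 7.61 in control, 7.50, 7.31 and 7.55 at 6 h, 7.45, 7.51 and 7.50 at 12 h, and 7.41, 7.35 and 7.48 at 24 h. These ranges overlapped at every time, and the differences of -0.06, -0.02 and -0.10 did not pass. Psmb11, the thymoproteasome subunit found in the thymus, read 5.93 to 6.13 in control and did not pass (0.14 at 24 h, 0.0811).

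**Figure D3:**
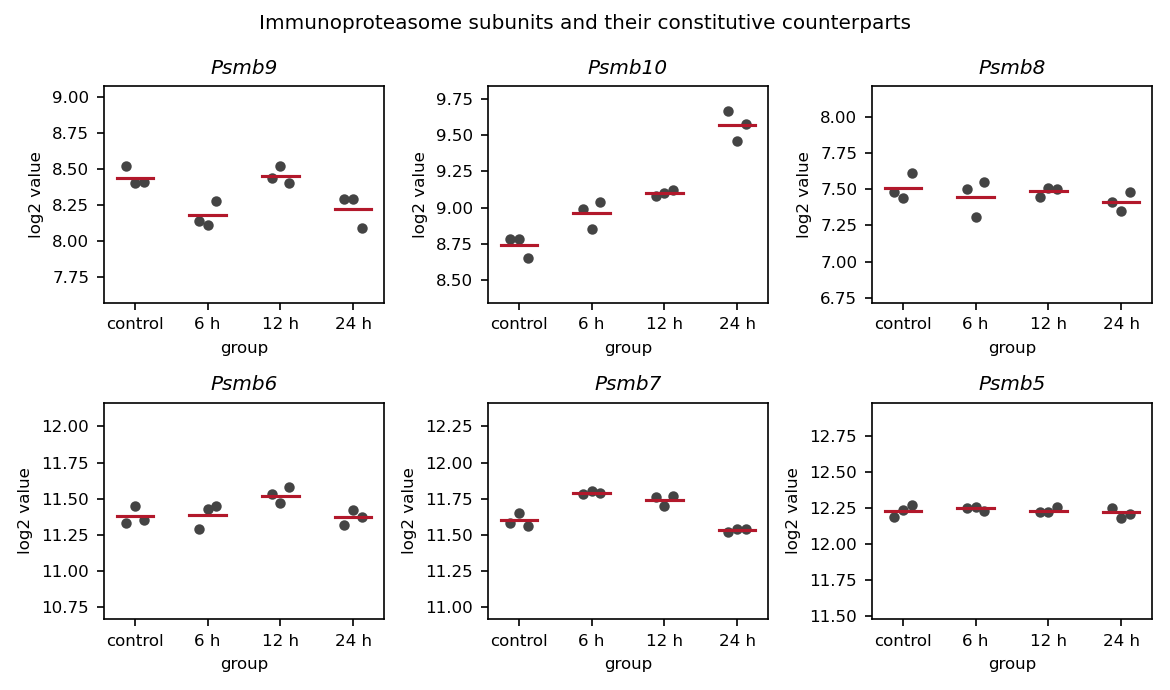
Dots are the log2 values of single arrays and red lines the mean of 3, with each immunoproteasome gene above the constitutive gene whose place its product takes and panels of equal height in log2 units. Psmb10 climbs from a mean near 8.74 to 9.57, Psmb9 is low at 6 h and 24 h, and Psmb5 stays flat.

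Each immunoproteasome gene was also set against its constitutive counterpart within each array, which removes any shift common to both. The log2 value of Psmb10 minus that of Psmb7 changed by 0.03 ± 0.07 at 6 h, 0.22 ± 0.04 at 12 h and 0.89 ± 0.08 at 24 h, a shift toward Psmb10, and its values at 12 h and 24 h did not overlap with those of control. Psmb9 minus Psmb6 changed by -0.28 ± 0.09 at 6 h, without overlap, by -0.13 at 12 h and by -0.21 at 24 h. For Psmb8 minus Psmb5 the changes were -0.07, -0.03 and -0.08, all with overlap. With 3 arrays against 3 the two-sided exact permutation test cannot go below p = 0.1, the value of the 3 changes without overlap (0.3 after adjustment over 9 comparisons).

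The promoters of these 3 genes are shown because their RNAs moved apart. The windows run from 250 bases before to 50 bases after the gene start in RefSeq (GRCr8), 5′ to 3′ on the strand of the gene, and capitals mark the core of the interferon-stimulated response element, which is TTTC, any 2 bases and TTTC again, or its reverse complement, which has GAAA in both places.
Psmb10, chr19:50743243-50743542, minus strand: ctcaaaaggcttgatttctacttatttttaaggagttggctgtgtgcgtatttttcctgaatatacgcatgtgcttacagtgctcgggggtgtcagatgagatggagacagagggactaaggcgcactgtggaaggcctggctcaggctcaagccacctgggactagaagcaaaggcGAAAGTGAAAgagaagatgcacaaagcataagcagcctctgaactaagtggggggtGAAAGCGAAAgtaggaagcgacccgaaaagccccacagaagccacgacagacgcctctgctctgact
Psmb8, chr20:4656982-4657281, minus strand: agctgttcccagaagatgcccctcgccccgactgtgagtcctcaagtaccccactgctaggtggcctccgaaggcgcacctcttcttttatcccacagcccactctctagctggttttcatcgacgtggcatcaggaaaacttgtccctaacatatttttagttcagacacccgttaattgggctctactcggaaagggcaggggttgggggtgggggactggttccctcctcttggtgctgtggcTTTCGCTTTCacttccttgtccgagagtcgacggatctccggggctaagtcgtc
Psmb9, chr20:4668750-4669049, plus strand: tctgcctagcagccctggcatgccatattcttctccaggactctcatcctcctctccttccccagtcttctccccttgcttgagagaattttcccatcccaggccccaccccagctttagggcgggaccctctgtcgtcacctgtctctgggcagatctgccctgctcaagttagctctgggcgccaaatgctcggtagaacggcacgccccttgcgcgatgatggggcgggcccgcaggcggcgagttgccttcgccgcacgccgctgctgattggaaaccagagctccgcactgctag
The search covered both strands, and positions give the first base of a match relative to the start. The window of Psmb10 held 2 matches, at -73 and -17, that of Psmb8 held 1 at -4, which spans the start, and that of Psmb9 held 0. Among 27457 windows of this length 3.77% held a match, and 7 of the 41 members with a window did (17.1%), namely Psma4, Psmb3, Psmb8, Psmb10, Psmd7, Psme2 and Psmg4. The genes with a match include ones that rose, fell and did not pass, and a match describes letters only.

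The base of the 19S cap had its most calls at 12 h. Of its 9 genes 4 were higher at 6 h, 8 at 12 h and 2 at 24 h, and 0 were lower. These shares were 44.4%, 88.9% and 22.2%, against 18.6%, 13.3% and 15.3% of all genes. Calls that held without any 1 array numbered 2, 4 and 1. Such calls were not counted over all genes, here or for the classes below. Psmc3, one of the ATPases of the ring that threads the substrate, moved most. It read 9.79, 9.84 and 9.74 in control, 10.14, 10.14 and 10.18 at 6 h, 10.23, 10.21 and 10.27 at 12 h, and 9.87, 9.91 and 9.95 at 24 h. The 6 h and 12 h arrays were far above control, and the 24 h arrays lay just above it without overlap. Psmc3 rose by 0.36 ± 0.04 at 6 h (adjusted p = 2.64e-05) and by 0.44 ± 0.04 at 12 h (8.43e-06), and its difference of 0.12 at 24 h did not pass (0.0539). Among the other ATPases, Psmc4 rose by 0.21 at 6 h and 0.19 at 12 h, and Psmc5 by 0.22 and 0.26. Psmc1 and Psmc2 each rose by 0.15 at 12 h. Several of these smaller calls were lost when 1 array was left out. They were Psmc5 at 6 h (control replicate 2, 6 h replicate 1 or 3), Psmc1 at 12 h (control replicate 1 or 3, 12 h replicate 2), Psmc2 at 12 h (any 1 control array, 12 h replicate 2 or 3) and Psmc4 at 12 h (control replicate 1, 12 h replicate 2). Psmc4 was also higher by 0.14 at 24 h (0.047), a call that held only without control replicate 3 or 6 h replicate 1. Psmc6 did not pass against control, with differences of 0.04, 0.05 and -0.16.

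Of the base subunits that are no ATPases, Psmd1 is a scaffold that binds ubiquitin receptors, Psmd2 is its counterpart and Psmd4 is itself a ubiquitin receptor. Psmd1 read 11.30, 11.25 and 11.23 in control, 11.35, 11.39 and 11.36 at 6 h, 11.45, 11.57 and 11.53 at 12 h, and 11.48, 11.46 and 11.44 at 24 h. All Ang II arrays were above all control arrays, with 6 h nearest to control. Psmd1 differed by 0.10 at 6 h (adjusted p = 0.0825) and rose by 0.25 ± 0.04 at 12 h (0.00071) and by 0.20 ± 0.04 at 24 h (0.00374). Psmd4 rose by 0.16 at 6 h and 0.25 at 12 h, and its 6 h call was lost without control replicate 1 or 3 or 6 h replicate 1 or 3. Psmd2 rose by 0.14 at 12 h (0.0397), a call lost in 9 of the 12 fits that left out 1 array, all but those without control replicate 2 or 24 h replicate 1 or 2.

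Of the 8 lid genes 6 were higher at 6 h, 7 at 12 h and 4 at 24 h, and 0 were lower. These shares were 75%, 87.5% and 50%, against 18.6%, 13.3% and 15.3% of all genes. The calls that held without any 1 array numbered 6, 6 and 2. Psmd14 (Rpn11), the metalloprotease that cuts ubiquitin chains from the substrate, had the largest rise of the lid. It read 10.74, 10.59 and 10.71 in control, 10.93, 11.12 and 11.02 at 6 h, 11.00, 11.05 and 11.03 at 12 h, and 10.78, 10.76 and 10.93 at 24 h. No Ang II array overlapped with control, although the 24 h arrays came close. Psmd14 rose by 0.34 ± 0.06 at 6 h (adjusted p = 0.000899) and by 0.35 ± 0.06 at 12 h (0.00126), and its 0.14 at 24 h did not pass (0.114). Psmd7, which pairs with Psmd14, rose by 0.19, 0.17 and 0.13 at the 3 times. The scaffold subunits Psmd12 (0.31, 0.27 and 0.19) and Psmd13 (0.21, 0.23 and 0.20) were also higher at all 3 times. Psmd8 and Psmd11 rose at 6 h and 12 h, by 0.27 and 0.30 and by 0.29 and 0.19. Psmd6 rose at 12 h and 24 h, by 0.13 and 0.16, and Psmd3 did not pass against control. Lost without 1 array were the calls on Psmd6 at 12 h (control replicate 1 or 2, 12 h replicate 2 or 3), Psmd7 at 24 h (control replicate 1 or 2, 24 h replicate 2) and Psmd12 at 24 h (any 1 control array, 24 h replicate 1).

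Base and lid together had 10 of 17 genes higher at 6 h, 15 at 12 h and 6 at 24 h. These shares were 58.8%, 88.2% and 35.3%, against 18.6%, 13.3% and 15.3% of all genes. The medians were 0.19, 0.19 and 0.12, beside 0.01, 0.01 and 0.05 over all genes. Calls that held without any 1 array numbered 8, 10 and 3. Median centring gave 13, 15 and 11 higher, against 20.8%, 15.4% and 24.5% of all genes. From 12 h to 24 h 0 of the 17 rose and 7 fell, against 14% and 13.5% of all genes. The 13 genes of the 20S core had medians of 0.07, 0.09 and -0.06, and the difference between the cap and the core was not tested as such.

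**Figure D4:**
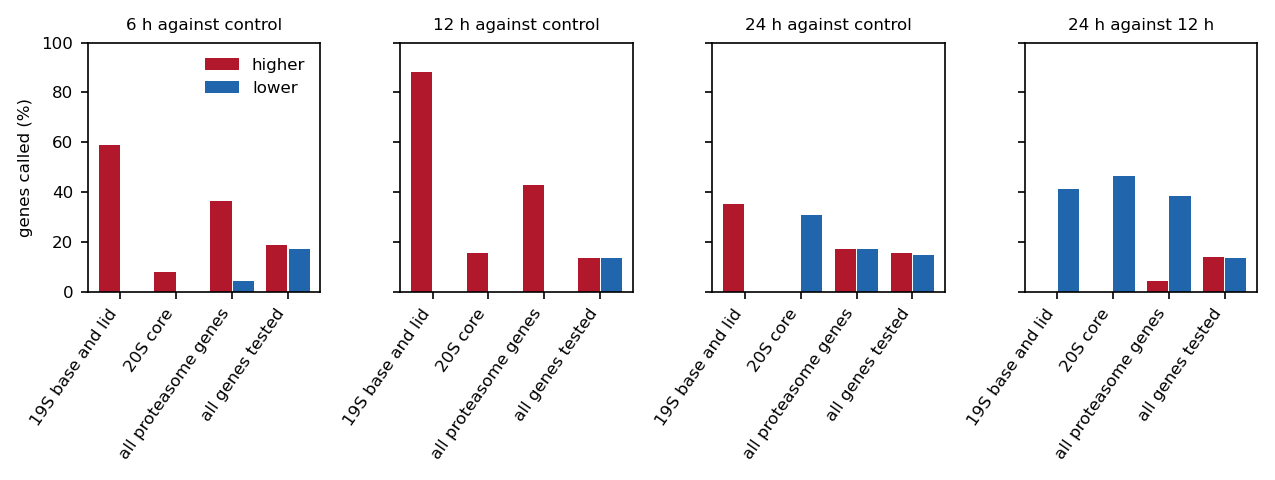
Bars give the percent of genes that were called higher (red) or lower (blue) among 17 genes of the 19S base and lid, 13 of the 20S core, all 47 proteasome genes and all genes tested, in 4 comparisons. The 19S bar is highest at 12 h, and the 24 h against 12 h panel holds mostly lower calls for proteasome genes.

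Of the 3 chaperones that build the 19S cap, Psmd5 and Psmd10 had the largest rises of all members at 6 h, and Psmd9 did not pass against control. Psmd5 read 9.50, 9.59 and 9.55 in control, 10.01, 10.01 and 10.08 at 6 h, 9.57, 9.63 and 9.71 at 12 h, and 9.44, 9.27 and 9.34 at 24 h. The 6 h arrays stood apart from all others, the 12 h arrays overlapped with control, and the 24 h arrays were below it. Psmd5 rose by 0.49 ± 0.05 at 6 h (adjusted p = 1.96e-05), a fold change of 1.4, differed by 0.09 at 12 h (0.279) and fell by 0.19 ± 0.05 at 24 h (0.0186). The 24 h call was lost without control replicate 2 or 3 or 24 h replicate 2 or 3 (up to 0.074). From 6 h to 24 h the gene fell by 0.68 (1.31e-06). Psmd10, known as gankyrin, rose by 0.40 at 6 h (0.000205) and by 0.40 at 12 h (0.000336), with 0.04 at 24 h (0.683). The differences of Psmd9 from control were 0.09, 0.06 and -0.07. From 6 h to 24 h Psmd9 fell by 0.16 (0.017), a call lost without 6 h replicate 3 or 24 h replicate 1.

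Activators are caps other than the 19S particle, and they differed in time and direction. Psme3 (PA28 gamma), the nuclear activator, read 11.62, 11.54 and 11.60 in control, 11.83, 11.94 and 11.82 at 6 h, 11.55, 11.51 and 11.43 at 12 h, and 11.49, 11.58 and 11.50 at 24 h. The 6 h arrays were above all others, and the later ones overlapped with control. Psme3 rose by 0.28 ± 0.05 at 6 h (adjusted p = 0.000863) and fell by 0.37 from 6 h to 12 h (0.000202), while its dimmer probe set differed by 0.12 at 6 h (0.259). Psme1 (PA28 alpha), which interferon induces together with Psme2 (PA28 beta), read 10.61, 10.70 and 10.62 in control, 10.47, 10.49 and 10.60 at 6 h, 10.49, 10.54 and 10.48 at 12 h, and 10.33, 10.22 and 10.30 at 24 h. Every Ang II array was below every control array, with 24 h lowest. Psme1 differed by -0.12 at 6 h (0.0873) and -0.14 at 12 h (0.062), neither of which passed, and fell by 0.36 ± 0.05 at 24 h (0.000202), where its dimmer probe set differed by -0.15 (0.243).

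Psme2 read 11.76, 11.77 and 11.62 in control, 11.73, 11.74 and 11.75 at 6 h, 11.46, 11.65 and 11.60 at 12 h, and 11.56, 11.70 and 11.73 at 24 h. It did not pass, with differences of 0.02, -0.14 and -0.05. Psme4 (PA200), an activator linked to histone degradation, read 11.03, 10.98 and 11.01 in control, 10.96, 10.98 and 11.01 at 6 h, 10.94, 10.93 and 10.93 at 12 h, and 10.92, 10.85 and 10.93 at 24 h. Its 12 h and 24 h arrays were below all control arrays, but the differences of -0.07 and -0.10 did not pass (adjusted p = 0.22 and 0.0597).

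**Figure D5:**
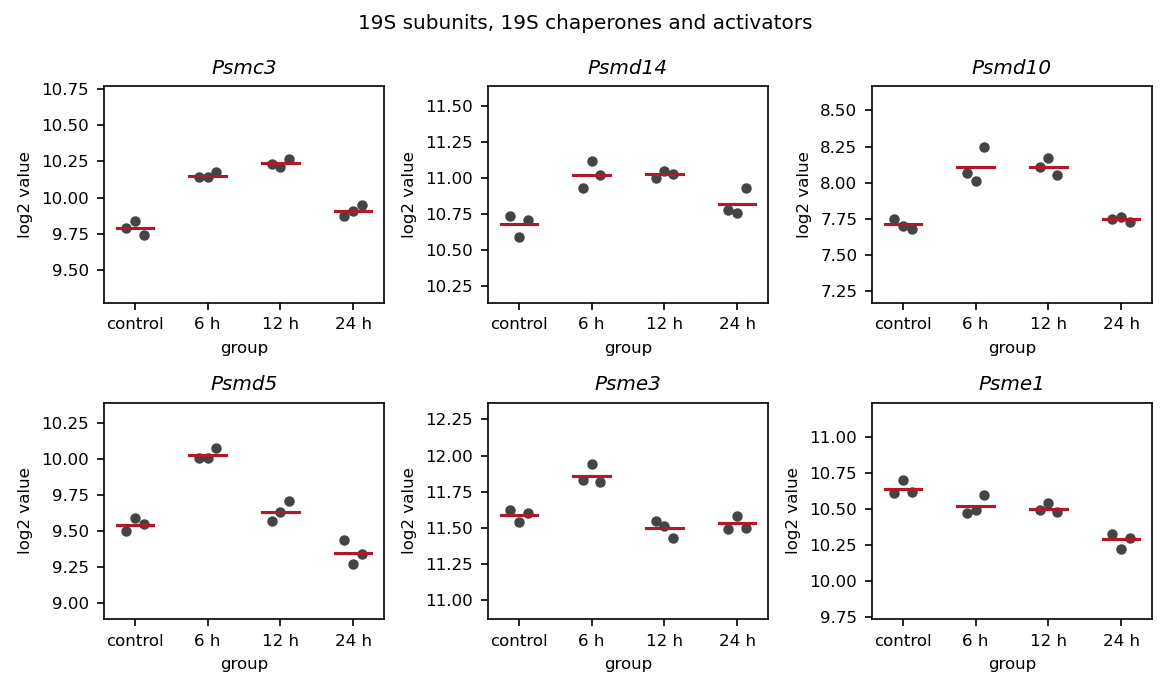
Dots are the log2 values of single arrays and red lines the mean of 3, for 2 subunits of the 19S cap (Psmc3, Psmd14), 2 of its chaperones (Psmd10, Psmd5) and 2 activators (Psme3, Psme1), with panels of equal height in log2 units. Psmc3, Psmd14 and Psmd10 are high at 6 h and 12 h, Psmd5 and Psme3 at 6 h, and Psme1 is lowest at 24 h.

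Of the 3 members that are chaperones of the 20S barrel, 0 rose against control, 1 fell at 6 h and 1 at 24 h. Of all genes 18.6%, 13.3% and 15.3% were higher at 6, 12 and 24 h, and 17.2%, 13.3% and 14.7% lower. With 3 genes these counts cannot be told from such shares. Psmg4 read 9.13, 9.27 and 9.17 in control, 9.17, 9.11 and 9.05 at 6 h, 9.07, 8.92 and 8.95 at 12 h, and 8.95, 8.68 and 8.94 at 24 h. The 12 h and 24 h arrays were below control and the 6 h arrays overlapped with it. Psmg4 fell by 0.33 ± 0.07 at 24 h (adjusted p = 0.0052), and its -0.21 at 12 h did not pass (0.0567). Psmg1 fell by 0.18 at 6 h (0.0337), a call lost when any 1 control array or 6 h replicate 3 was left out, and Psmg2 did not pass.

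Of the genes that match by symbol only, Psma3l is named for its likeness to Psma3 and could share signal with it, which was not tested. It read 10.88, 10.90 and 10.81 in control, 11.16, 11.18 and 11.15 at 6 h, 11.10, 11.11 and 11.18 at 12 h, and 10.88, 10.83 and 10.86 at 24 h. The 6 h and 12 h arrays were above control, and the 24 h arrays overlapped with it. Psma3l rose by 0.30 ± 0.04 at 6 h (adjusted p = 9.4e-05) and by 0.27 ± 0.04 at 12 h (0.000375). Psme3ip1, a partner of PA28 gamma, rose by 0.17 at 6 h (0.0453), a call lost without control replicate 3, 6 h replicate 1 or 3, 12 h replicate 2 or 24 h replicate 1 or 3, and by 0.26 at 24 h (0.00573). Psmc3ip, a meiotic recombination factor, did not pass.

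Other genes of the pathway were taken from 4 lists, whose counts stand against the same background as those of the members (18.6% higher and 17.2% lower at 6 h, 13.3% each at 12 h, 15.3% and 14.7% at 24 h). Among 9 measured partners of the 26S particle, 3 were higher and 1 lower at 6 h, 3 and 1 at 12 h, and 1 and 2 at 24 h. Pomp, the maturation factor of the 20S core, rose by 0.32 at 6 h (adjusted p = 0.000529) and by 0.46 at 12 h (4.96e-05), with 0.05 at 24 h. Adrm1, the ubiquitin receptor Rpn13, rose by 0.36 at 6 h (2.34e-05), 0.14 at 12 h and 0.26 at 24 h. Uchl5, the deubiquitinase that Adrm1 binds, went the other way and fell by 0.62 at 6 h (2.38e-05) and by 0.32 at 12 h (0.00568). Zfand5, a proteasome activator, fell by 0.35 at 24 h (0.000317).

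Transcription of proteasome genes is known to be driven by Nfe2l1 (NRF1) through the antioxidant response element, with Nfe2l2 (NRF2), small Maf proteins and Bach1 acting on related sites. Of 9 genes in this list 4 were higher and 1 lower at 6 h, 1 and 1 at 12 h, and 1 and 3 at 24 h. Bach1, a repressor, rose by 0.66 at 6 h (adjusted p = 1.61e-05), Nfe2l2 rose by 0.24 at 6 h (0.000535) and fell by 0.20 at 24 h (0.00312), Maff fell by 0.63 at 24 h (0.000538), and Ddi2, the protease that activates NRF1, rose by 0.25 at 6 h (0.0473). Nfe2l1 itself, named after its values were seen, rose by 0.14, 0.21 and 0.20 at the 3 times (0.0243, 0.00261 and 0.00411).

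The core of the antioxidant response element, TGACNNNGC, was sought on both strands of the same windows. It was present in 12.2% of all windows and in 7 of 41 members (17.1%), which were Psmb2, Psmb5, Psmb6, Psmd1, Psmd3, Psmd9 and Psme4. Of the 19 members with a window that were higher at 6 h or 12 h, 1 held it, and of the other 22 members 6 did. The sites of Psmd1, the member that was higher, and of the catalytic genes Psmb5 and Psmb6, which did not pass, are shown with the motif in capitals (GRCr8).
Psmd1, chr9:94157798-94157822, plus strand: cagatctaTGACCTCGCgagaatta
Psmd1, chr9:94157985-94158009, plus strand: gaggggacTGACTGAGCagcgcacc
Psmb5, chr15:32047423-32047447, minus strand: tgaagctgTGACGTCGCggcgttgc
Psmb6, chr10:55737856-55737880, plus strand: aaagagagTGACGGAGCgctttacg
The CCAAT box, CCAAT on both strands, was in 37.7% of all windows and in 20 of the 41 members (48.8%). In Psmb2 a CCAAT box and a TGACNNNGC match shared 1 base, and no other matches of different motifs overlapped. These matches say which letters the windows hold and nothing of binding.

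Among 12 measured genes of ubiquitin, shuttle factors and p97, 8 were higher and 0 lower at 6 h, 4 and 1 at 12 h, and 2 and 1 at 24 h. Uba6, an enzyme that activates ubiquitin, rose by 0.54 at 6 h (adjusted p = 5.04e-06). The shuttle factors Ubqln1 and Ubqln2 rose by 0.26 at 24 h and by 0.25 at 12 h, and Ddi2 belongs to this list too. Ubqln4 of the same list, named after its values were seen, went the other way. Its mean was 10.00 in control and 9.76 at 12 h, with every 12 h array below control. Of 9 measured genes of class I antigen processing, which uses peptides from the proteasome, 2 were higher at 6 h, 3 at 12 h and 1 at 24 h, and 0 were lower. Tap1, the peptide transporter, rose by 0.42 at 12 h (0.000935) and not at 24 h (-0.07), Irf1, an interferon-responsive transcription factor, rose by 0.31 at 6 h (0.00384), Tapbp by 0.19 at 12 h and B2m by 0.16 at 24 h.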

How the data were processed

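Gene expression was measured on 12 arrays, and samples were grouped by their titles. Per the submitters' processing notes the authors used RMA and Partek to make the deposited log2 values. Tool versions and the summary level were not given in the sources used here. Of 29214 probe sets 15310 had 1 symbol in the platform annotation, and a gene with several was represented by its brightest probe set on average over 12 arrays, which left 14506 genes. For 14481 of these the gene identifier matched a RefSeq table of GRCr8.

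limma 3.58.1 (R 4.3.3) fitted 4 group means to all 12 arrays (8 residual degrees of freedom, two-sided tests), adjusted over all genes within each comparison. No filter on dim genes was applied. The step was tested on simulated data. The pairs of subunits were compared with an exact permutation test in scipy 1.17.1. Promoter windows came from RefSeq for 41 members.

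Members and lists were chosen with earlier results of these data known. Values of every array are given for the member with the largest rise and the largest fall in each role class, the 3 immunoproteasome genes and the 4 activators, and up to 4 genes of each pathway list with the largest change that passed are named. Alternatives were the 2 groups alone, the replicate number as a block, each array left out, a filter at the median level, averaging each gene's probe sets, quantile normalization, median centring, trended and robust variance, array weights and a minimum of 1.5-fold. A fit that dropped, from each Ang II group, the narrowest array (6 h replicate 2, 12 h replicate 1 and 24 h replicate 2) and a fit of all probe sets were added after seeing the data. Scanner files were not used here.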

Additional observations from a re-analysis of the deposited data

Results flagged for a closer look

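For 2 members the effects against control passed with opposite signs at different times, and the difference between the times passed as well. Psmb4 was 0.13 above control at 12 h and 0.21 below it at 24 h, with a difference of -0.34 between these times. Psmd5 was 0.49 above control at 6 h and 0.19 below it at 24 h, with a difference of -0.68. In both genes 1 of the effects against control was lost when single arrays were left out (Psmb4 at 12 h, Psmd5 at 24 h).

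Probe sets outside the comparisons also carried signal. The probe set that the annotation assigns to both Psma3l and Psma3 was 0.25 higher at 6 h (limma adjusted p = 0.00441) and 0.24 higher at 12 h (0.00799) than in control. The dimmer probe set of Psmc4 was 0.31 higher at 6 h (0.000807) and 0.27 higher at 12 h (0.00386), in the direction of the probe set used. The dimmer probe sets of other members did not pass where the probe set used did: Psmd8 at 6 h and 12 h (0.14 and 0.23, adjusted p = 0.425 and 0.159), Psme3 at 6 h (0.12, 0.259), Psme1 at 24 h (-0.15, 0.243) and Psma6 at 24 h (-0.25, 0.201), each with the sign of the probe set used. That of Psmc4 did not pass at 24 h (0.12, 0.119). Groups of 3 arrays were not tested for outliers.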

How the results depend on the processing

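No call on a member reversed its direction under any setting run, and of 103 calls on members in 6 comparisons 65 held without any 1 array. The calls over all genes that held in this way were not counted. Without 1 array at a time, members called numbered 15 to 19 at 6 h, 13 to 20 at 12 h and 10 to 17 at 24 h against control, 4 to 6 for 12 h against 6 h, 15 to 21 for 24 h against 12 h and 17 to 22 for 24 h against 6 h. The lowest counts at 12 h and 24 h against control came without control replicate 1. Calls over all genes were also fewer in that fit than in the full fit, with 1536 higher and 1640 lower at 12 h. At 24 h they were 1719 and 1835. The medians of the members stayed within 0.08 to 0.10, 0.09 to 0.12 and -0.03 to 0.01 against control. With the 2 groups of a comparison alone, 9 members were called at 24 h (16 in the full fit) and 13 for 24 h against 12 h (20 in the full fit). Of all 14506 genes this setting called 2162 higher and 1882 lower at 24 h (2222 and 2136 in the full fit). For 24 h against 12 h it called 1443 and 1516 (2028 and 1955 in the full fit). When the narrowest array of every Ang II group was dropped, a setting chosen after seeing the data, the counts were 9 at 24 h, 11 for 24 h against 12 h and 14 for 24 h against 6 h. Over all genes they were 2010 higher and 1674 lower, 1541 and 1461, and 2561 and 2432 in the same order. A minimum of 1.5-fold left 0 at 6 h and 12 h, 1 at 24 h, 0 for 12 h against 6 h, 0 for 24 h against 12 h and 2 (Psmb10 and Psmd5) for 24 h against 6 h. The other settings stayed within 1.5 times the counts given. Precision is limited by the number of arrays.

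The deviations of arrays with the same replicate number from their group means had a median correlation of 0.0265 over 18 pairs, with 3 over 0.1, against -0.02 over 36 pairs of different numbers, with 5 over 0.1. Since not every pair was over 0.1 and no label ties the numbers together, they were not taken as pairs, although 7 of 12 arrays correlated best with their own number, a hint from the data only. With the replicate block 18, 18 and 13 members were called at 6 h, 12 h and 24 h against control, 6 for 12 h against 6 h, 19 for 24 h against 12 h and 21 for 24 h against 6 h. Of all genes it called 2631 higher and 2428 lower at 6 h, 1864 and 1867 at 12 h, and 2244 and 2051 at 24 h. It called 1813 and 1908 for 12 h against 6 h, 2003 and 1893 for 24 h against 12 h, and 2852 and 2829 for 24 h against 6 h.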
